A study of Mus musculus with 3 samples.

Results

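The genes described here are 9 that T cells and natural killer (NK) cells use to kill: the granzymes Gzma, Gzmb, Gzmc, Gzmk and Gzmm, perforin (Prf1), the granule membrane protein Nkg7, the death ligand Fasl and the granule-associated cysteine protease Ctsw. They were chosen by name from what the genes are known to do, with earlier results of these data known. They are 9 of the 30406 gene identifiers shared by the 3 libraries. The study asked how the invariant NKT (iNKT) cells that develop in the mouse thymus differ after bone marrow transplantation (BMT) with and without graft-versus-host disease (GvHD), and it measured single-cell RNA as unique molecular identifiers (UMIs), which count captured RNA molecules. The 3 groups were C57BL/6 mice of 7 weeks without BMT (labelled WT), BM only recipients (Non-GVHD) and BM + Spl recipients (GVHD). Both kinds of recipient were F1 offspring of a cross of C57BL/6 with BALB/c, had been lethally irradiated and given T cell-depleted C57BL/6 bone marrow, and they were 16 weeks old, 9 weeks after BMT. BM + Spl recipients had received C57BL/6 splenic cells in addition. In every group CD8+ cells were removed from thymic cells with beads before the TCRβ+CD1d-tet+CD24-NK1.1- fraction was sorted, and each library pooled the cells of several mice. The NK1.1- sort left out the NK1.1+ stage of NKT1 cells, and the CD8 depletion and the sort both bear on the shares of cells given here.

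Killer lymphocytes store granzymes, which are serine proteases, in secretory granules together with perforin. On contact with a target cell the granules are released, perforin makes pores, and the granzymes enter and cut proteins of the target. Fasl is displayed at the cell surface and triggers death through the receptor Fas, independently of granules. Among thymic iNKT cells, NKT1 cells use the transcription factor T-bet and make interferon-γ, NKT2 cells carry the most PLZF and make IL-4, and NKT17 cells make IL-17. NKT1 cells are the iNKT subset known for cytotoxic genes.

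The libraries of C57BL/6, BM only and BM + Spl held 4613, 5986 and 5573 barcodes, of which 4434, 5970 and 5557 had more than 200 and fewer than 6000 genes and under 10% mitochondrial UMIs. The libraries differed in depth, with 60600408, 35041153 and 43383960 UMIs in all and medians of 12086.5, 4740 and 6495 UMIs per kept cell. Cells were gated by marker UMIs with no gene of the 9, which gave 1565, 2496 and 993 NKT1-gate cells and 2318, 907 and 1567 NKT2-gate cells in that order. The NKT1 gate stood for 35.3%, 41.8% and 17.9% of cells. Among NKT1-gate cells with a V beta call, 91.7%, 90.6% and 48.0% used the V beta segments typical of mouse iNKT cells. A large part of that gate in BM + Spl thus did not carry the V beta of the cells named by the sort. Ratios of BM + Spl to BM only there are also given for iNKT V beta cells alone, which need not all be iNKT cells. The NKT1 to NKT2 ratios, shares of cells and spread of UMIs over cells in that gate were not split by V beta. The B and myeloid gates held 87 and 219 cells in BM only and 75 and 438 in BM + Spl. The T cell identity genes Cd3d, Cd3e, Cd3g and Trac summed to at most 2 UMIs in 10, 536 and 546 cells. BM only and BM + Spl shared 43 barcodes, and no other pair of libraries shared any. There was 1 library per group, so no test between groups was possible: levels are UMIs per 1000000 UMIs (CPM) with exact Poisson 95% intervals, shares have exact binomial intervals, and ratios have exact conditional binomial intervals, all for counting error only. The C57BL/6 library was counted with another Cell Ranger version than the other 2, by the table headers, and its values are set beside theirs without a ratio.

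All 9 genes are protein-coding, and positions are given on the mm10 (GRCm38) assembly. Gzmb (chr14:56258838-56262260) and Gzmc (chr14:56231441-56234656) are neighbours on the minus strand, 24.2 kb apart, beside the near-identical copies Gzmd to Gzmn, among which reads can be split or lost, so Gzmc and Gzmb counts are uncertain to that extent. Gzma (chr13:113093825-113100981) and Gzmk (chr13:113171608-113225908) lie 70.6 kb apart on the minus strand. Prf1 (chr10:61297833-61304680) and Gzmm (chr10:79689020-79695261) are both on the plus strand of chromosome 10, Nkg7 is at chr7:43437073-43438249, Fasl at chr1:161780689-161788495 and Ctsw at chr19:5465043-5468507. Gzmk overlaps Esm1 and Ctsw overlaps Fibp, each on the opposite strand, and the strand setting of the counting is not given in the sources used here. The 250 bases before the transcription start (RefSeq starts, GRCm38.p6) were found for 8 of the 9 genes, with 2 starts for Gzmm, and these starts need not coincide with the gene ends above. They are shown for the 4 genes whose levels the results turn on most, 5′ to 3′ on the strand of the gene, at chr13:113100982-113101231 for Gzma, chr14:56262335-56262584 for Gzmb, chr14:56234658-56234907 for Gzmc and chr10:61297586-61297835 for Prf1, with matches to the Runx motif TGTGGT (or ACCACA, its reverse complement) and, in Gzmb, to the AP-1 motif TGANTCA in capitals.
Gzma: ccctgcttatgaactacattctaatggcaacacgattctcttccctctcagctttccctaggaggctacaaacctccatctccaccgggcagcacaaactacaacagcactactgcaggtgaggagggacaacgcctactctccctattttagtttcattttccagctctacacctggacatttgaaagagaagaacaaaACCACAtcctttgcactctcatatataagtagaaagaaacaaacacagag
Gzmb: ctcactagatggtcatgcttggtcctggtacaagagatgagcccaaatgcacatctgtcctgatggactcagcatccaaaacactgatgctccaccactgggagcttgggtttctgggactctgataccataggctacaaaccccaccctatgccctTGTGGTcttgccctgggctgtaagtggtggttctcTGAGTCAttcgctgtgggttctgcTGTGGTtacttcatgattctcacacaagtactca
Gzmc: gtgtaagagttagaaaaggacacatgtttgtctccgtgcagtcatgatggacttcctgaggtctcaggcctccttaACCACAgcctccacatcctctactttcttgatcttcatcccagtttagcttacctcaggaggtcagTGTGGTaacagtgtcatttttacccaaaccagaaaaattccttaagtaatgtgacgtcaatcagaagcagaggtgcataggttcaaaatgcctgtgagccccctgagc
Prf1: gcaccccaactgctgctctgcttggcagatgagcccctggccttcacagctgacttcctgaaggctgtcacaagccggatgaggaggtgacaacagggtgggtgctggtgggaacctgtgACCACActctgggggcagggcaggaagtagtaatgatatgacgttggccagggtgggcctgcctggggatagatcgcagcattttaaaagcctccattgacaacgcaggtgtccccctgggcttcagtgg
The Runx letters were present in 6 of the 8 genes, against 14.0% of 32851 mouse promoters of the same length. They began 50 bases before the start in Gzma, 93 and 34 in Gzmb, 174 and 108 in Gzmc, and 130 in Prf1. The T-box letters GGTGTGA, searched on both strands like the others, were in 3 of the 8 genes (Gzmk, Nkg7 and the second start of Gzmm) and in 3.33% of all promoters. The STAT letters TTCNNNGAA were in 2 of the 8 (Gzmm and Nkg7; 7.02% of all), and the AP-1 letters in 1 of the 8, Gzmb, 58 bases before its start (6.75% of all). A match of letters is a description of the sequence and not a binding site.

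The killing genes were mostly higher in the NKT1 gate than in the NKT2 gate, in each library. A gene was counted here when it had at least 20 UMIs over both gates, and called when its CPM ratio was past 1.5-fold. In C57BL/6, 7 of 7 counted genes were higher in the NKT1 gate, with a median of 26.1-fold, where 10.5% of all 11996 genes counted were higher by the same rule. In BM only, 8 of 8 were higher, with a median of 44.7-fold, against 18.3% of 11649 genes. In BM + Spl, 7 of 8 were higher, with a median of 25.6-fold, against 18.3% of 11696 genes. The median log2 ratio of all genes was -0.02, -0.03 and 0.03 in the 3 libraries. Gzmk (2 UMIs in the NKT1 gate and 0 in the NKT2 gate of C57BL/6, 19 and 0 in BM only) and, outside BM only, Gzmm were under the minimum.

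**Figure D1:**
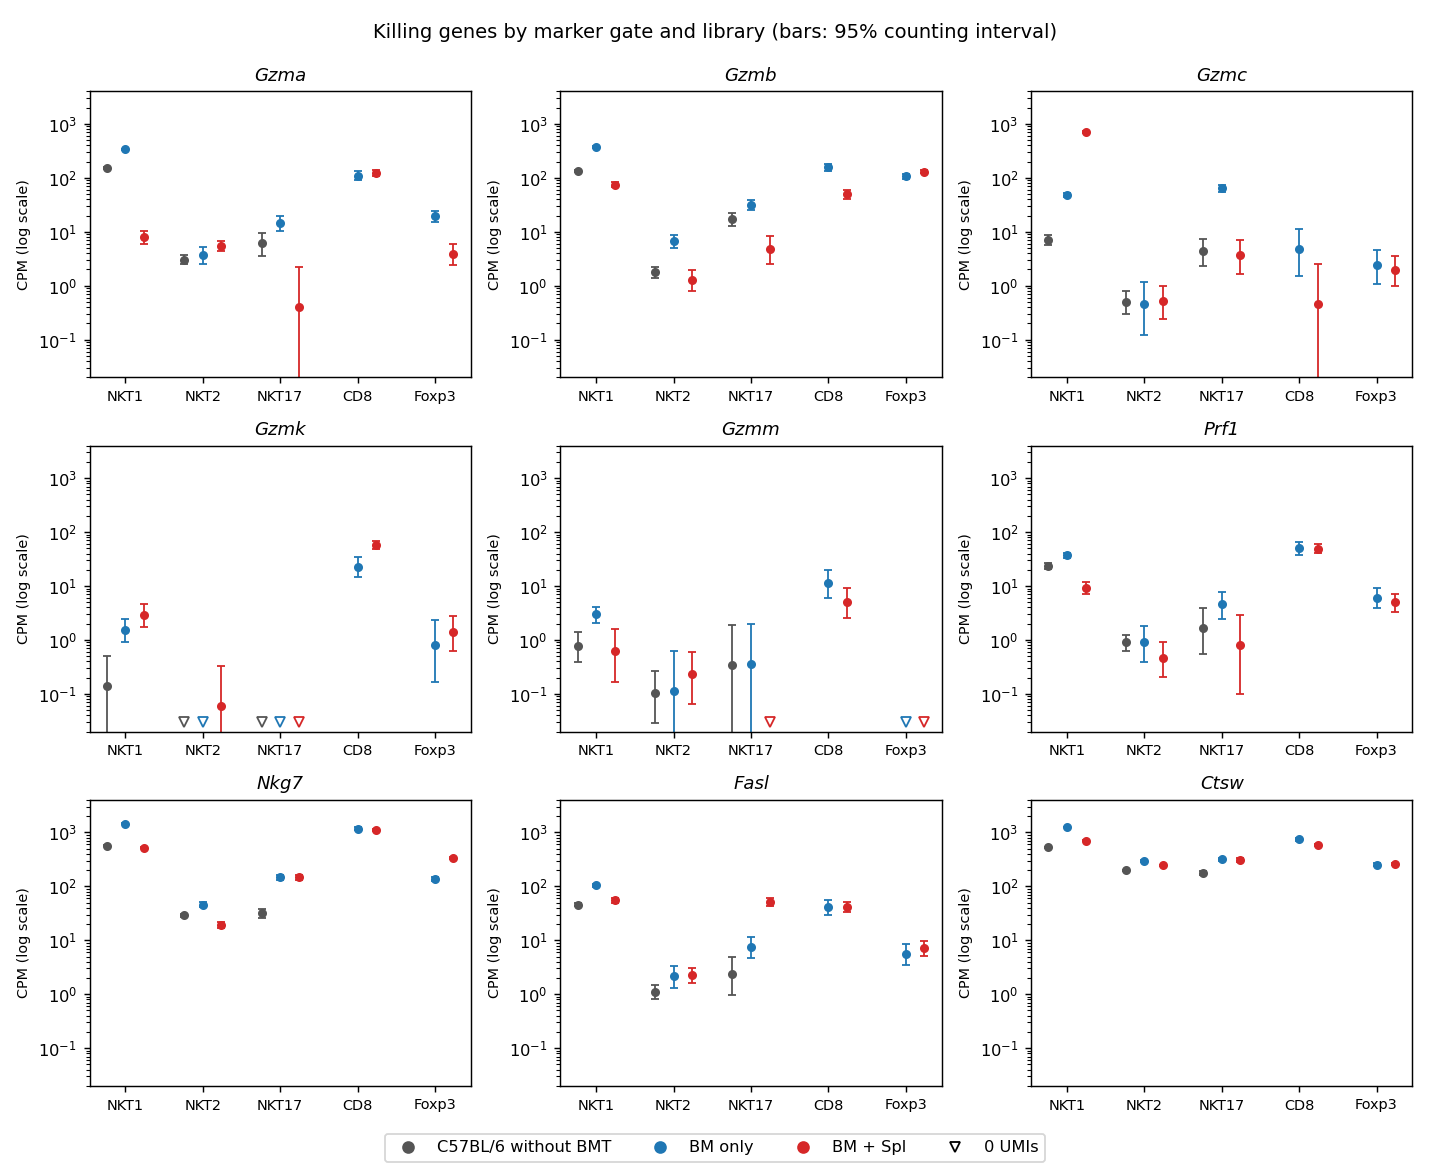
Level of each of the 9 genes (CPM, log axis) by gate and library, with exact Poisson 95% intervals and triangles at the bottom for 0 UMIs. The CD8 and Foxp3 gates of C57BL/6, with 12 and 3 cells, are not drawn. For Nkg7 the NKT1 gate stood at 568, 1452 and 521 CPM and the NKT2 gate at 28.9, 45.9 and 19.3.

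Among the granule proteases, Gzmb, the granzyme that starts caspase-dependent death, stood at 134, 373 and 75.2 CPM in the NKT1 gate of C57BL/6, BM only and BM + Spl. In the NKT2 gate it stood at 1.77, 6.66 and 1.29 CPM, and the ratio of NKT1 to NKT2 was 75.6 (59.3 to 98.0), 56.0 (43.3 to 73.7) and 58.3 (38.1 to 93.9). The intervals of the 3 Gzmb ratios overlapped, while the NKT1-gate level was highest in BM only. Gzma, a tryptase granzyme, stood at 151, 336 and 7.98 CPM in the NKT1 gate and at 3.05, 3.73 and 5.39 CPM in the NKT2 gate. Its ratio was 49.7 (41.2 to 60.4) in C57BL/6 and 90.1 (64.0 to 131) in BM only, but 1.48 (1.03 to 2.10) in BM + Spl, under the 1.5-fold rule. Gzma was the only counted gene not called in this comparison, and its place under the 1.5-fold limit rests on 1 cell. This cell held 39 of the 92 Gzma UMIs of the BM + Spl NKT2 gate, which stood at 3.11 CPM without it. The fall of the ratio below those of the other 2 libraries does not rest on this cell. It lay in the NKT1 gate, at 7.98 CPM against 151 and 336. Gzmc stood at 7.08, 48.9 and 707 CPM in the NKT1 gate and at 0.503, 0.452 and 0.527 CPM in the NKT2 gate. Most of the BM + Spl value for Gzmc came from a few cells, described further on. Gzmm, a granzyme known from innate-like killers, was rare, at 0.771, 2.99 and 0.614 CPM in the NKT1 gate. Gzmk, a granzyme typical of memory-like CD8 T cells, was at 0.14, 1.54 and 2.92 CPM in the NKT1 gate.

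Prf1, the pore-forming protein, stood at 23.5, 37.1 and 9.21 CPM in the NKT1 gate of C57BL/6, BM only and BM + Spl and at 0.90, 0.904 and 0.469 CPM in the NKT2 gate. Nkg7, needed for the release of granules, stood at 568, 1452 and 521 CPM against 28.9, 45.9 and 19.3 CPM. Fasl stood at 45.7, 105 and 55.7 CPM against 1.11, 2.15 and 2.29 CPM. All 3 of these genes were at least 19.6-fold higher in the NKT1 gate in each library. For Prf1 in BM + Spl this value (9.35 to 47.5) rested on 60 and 8 UMIs. There 1 cell held 23 of the 60, and the NKT1 gate stood at 5.68 CPM without it. Ctsw was spread over both gates. It stood at 534, 1262 and 705 CPM in the NKT1 gate and at 198, 299 and 246 CPM in the NKT2 gate, ratios of 2.69, 4.22 and 2.87. A Ctsw UMI was found in 97.3%, 95.5% and 79.3% of NKT1-gate cells and in 85.5%, 80.8% and 79.6% of NKT2-gate cells. The NKT1-gate cells were shallower, at medians of 7206, 4528.5 and 5109 UMIs per cell against 15004, 9069 and 10024 in the NKT2 gate. With cells thinned to equal depth, NKT1-gate shares were 76.8%, 92.4% and 70.1%. NKT2-gate shares were then 41.1%, 53.6% and 44.0%. The near-equal shares of BM + Spl thus did not hold at equal depth. Cells of the B gate should lack Ctsw. There the share without thinning was 18.4% of 87 cells in BM only and 30.7% of 75 in BM + Spl. Median depth of the B gate was 6356 and 8446 UMIs per cell. Of its Ctsw UMIs, 26 of 39 and 67 of 76 were in cells with more than 2 T cell identity UMIs. For Nkg7 the NKT2-gate shares without thinning were 12.5% in BM only and 7.98% in BM + Spl. They were not above the B-gate shares, 10.3% (4.84 to 18.7) and 15 of 75 cells (11.6% to 30.8%), beyond the intervals. Of the B-gate Nkg7 UMIs, however, 25 of 41 and 67 of 67 were in cells with more than 2 T cell identity UMIs. The B gate thus does not measure background alone, and the part of background in the NKT2-gate shares was not tested. Median depth was 9069 and 10024 UMIs in those NKT2 gates.

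Other genes of the killing pathway were looked at in a list of 38: other granzymes, granule loading and release, granzyme activation, serpins, death ligands and receptors, and regulators. Past 2-fold, 11 of 31 counted in C57BL/6, 16 of 32 in BM only and 17 of 32 in BM + Spl were higher in the NKT1 gate, where 5.13%, 10.7% and 11.6% of all genes counted were. None was past 2-fold lower, where 6.14%, 9.11% and 4.92% of all genes were. Of the regulators, 7 of 7, 8 of 8 and 7 of 7 counted were higher, but Tbx21 is itself a marker of the gate. Runx3 stood at 183, 134 and 81.5 CPM in the NKT1 gate against 44.8, 15.6 and 11.6 CPM in the NKT2 gate. Hopx stood at 47.6, 461 and 274 CPM against 6.36, 24.4 and 19.5 CPM. Serpina3g, a protease inhibitor, stood at 7.22, 43.7 and 86.1 CPM against 0.132, 1.69 and 1.23 CPM. The granzymes Gzmd, Gzme, Gzmf, Gzmg and Gzmn had fewer than 20 UMIs in each comparison.

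The comparison the study was designed for set BM + Spl against BM only. Over all kept cells, 7 of the 9 genes were lower in BM + Spl past 1.5-fold and 2 were higher, and the median of the 9 was 2.96-fold lower. By the same rule 10.8% of 14295 genes counted were lower and 8.17% higher, and the median log2 ratio of all genes was -0.00. Gzma was 13.4-fold lower (12.2 to 14.8), from 143 to 10.7 CPM, and Gzmb was 4.75-fold lower (4.48 to 5.03), from 164 to 34.6 CPM. Prf1 was 3.55-fold lower (18.1 to 5.10 CPM), Gzmm 3.21-fold (1.64 to 0.510 CPM), Nkg7 2.96-fold (647 to 219 CPM), Fasl 2.45-fold (44.9 to 18.3 CPM) and Ctsw 2.02-fold (674 to 334 CPM). The 2 that were higher were Gzmc, 4.11-fold (28.4 to 117 CPM), and Gzmk, 2.70-fold (1.35 to 3.64 CPM). In sums over all cells, fewer cells of a type and less RNA per cell cannot be told apart, and the NKT1 gate held 41.8% of BM only cells and 17.9% of BM + Spl cells. When the gates of BM + Spl were weighted by the gate shares of BM only, the ratio of BM + Spl to BM only moved from 0.0745 to 0.0620 for Gzma, from 0.211 to 0.278 for Gzmb, from 0.281 to 0.320 for Prf1, from 0.338 to 0.451 for Nkg7, from 0.408 to 0.651 for Fasl and from 0.496 to 0.633 for Ctsw. These 6 remained lower at equal gate shares, and so did Gzmm (0.311 to 0.292). Gzmc moved from 4.11 to 9.04 and Gzmk from 2.70 to 2.24, both higher in BM + Spl either way.

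**Figure D2:**
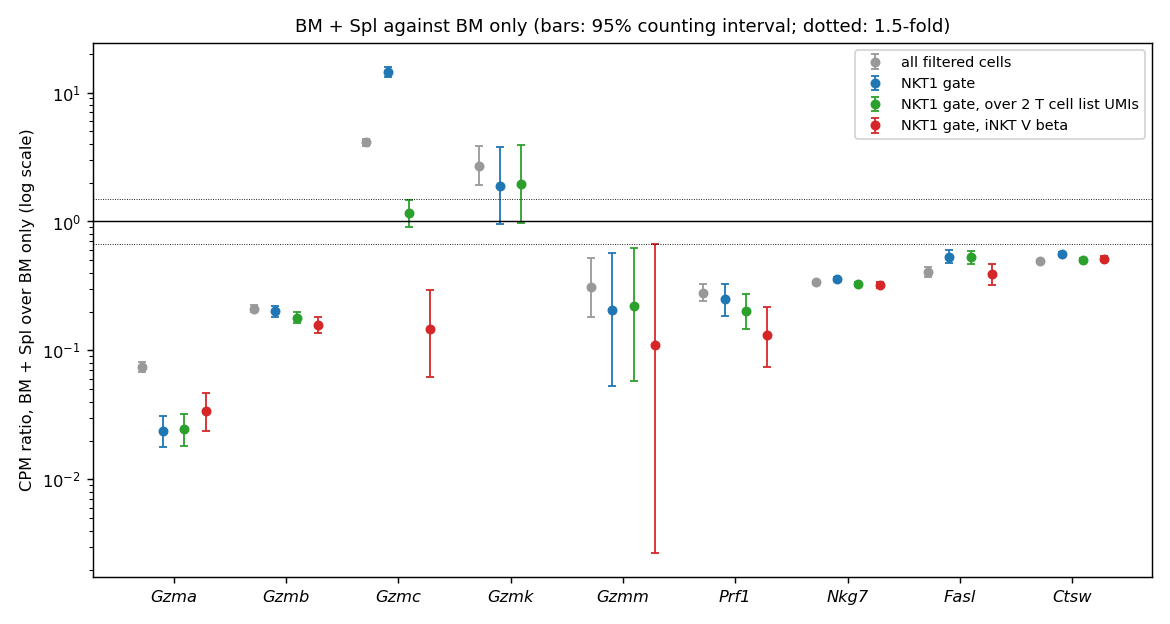
CPM ratio of BM + Spl to BM only for each gene (log axis, with exact 95% intervals for counting error) over all cells, in the NKT1 gate, in the NKT1 gate without cells of at most 2 T cell identity UMIs, and in the NKT1 gate with iNKT V beta. Gzma lay farthest below 1 in each, and Gzmc moved from 14.5 in the NKT1 gate to 1.16 and 0.146 in the last 2.

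Within the NKT1 gate the 7 genes just named as lower were lower in BM + Spl past 1.5-fold as well, and Gzmc and Gzmk were higher, with a median of 2.79-fold lower, where 11.5% of 11552 genes counted were lower and the median log2 ratio of all genes was 0.06. Gzma went from 336 CPM (326 to 346) to 7.98 CPM (5.96 to 10.46), 42.1-fold lower (32.0 to 56.5). A Gzma UMI was found in 14.1% of BM only cells and in 1.71% of BM + Spl cells of the gate. Gzmb went from 373 to 75.2 CPM, 4.96-fold lower (4.52 to 5.46), and its cells from 50.5% to 7.25%. In the B gate Gzmb UMIs were in 3 of 87 and 3 of 75 cells. Of those UMIs, 13 of 15 and 36 of 36 were in cells with more than 2 T cell identity UMIs. Prf1 was 4.03-fold lower (3.07 to 5.36), Nkg7 2.79-fold (2.69 to 2.89), Fasl 1.88-fold (1.67 to 2.12) and Ctsw 1.79-fold (1.73 to 1.85). Gzma, Gzmb and Prf1 thus lay further apart between the recipients than Fasl and Ctsw, with counting intervals that did not overlap. Nkg7 lay between, and the granzymes Gzmc and Gzmk went the other way. These intervals do not cover the gathering of UMIs in few cells. Gzmm rested on 37 and 4 UMIs (ratio 0.205, 0.0531 to 0.571), and Gzmk on 19 UMIs in each (ratio 1.90, 0.95 to 3.78).

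The markers of NK cells (Ncr1, Eomes, Klrb1c and Klre1) summed to 178, 214 and 59.7 CPM in the NKT1 gate of C57BL/6, BM only and BM + Spl, and their part in these differences was not tested. The C57BL/6 library lay between the other 2 for Gzma, Gzmb and Prf1 in the NKT1 gate, with 151, 134 and 23.5 CPM, while for Fasl and Ctsw, at 45.7 and 534 CPM, it was the lowest of the 3. With every cell thinned to 2700 UMIs and shallower cells left out (1, 279 and 66 cells of the gate), a Gzmb UMI was found in 21.3%, 42.6% and 5.39% of NKT1-gate cells of C57BL/6, BM only and BM + Spl. For Gzma the thinned shares were 8.38%, 11.998% and 0.971%, and for Prf1 8.25%, 9.61% and 1.62%. For Nkg7 they were 67.0%, 89.4% and 46.2%, and for Fasl 14.8%, 24.6% and 16.4%. At equal depth BM only had the highest share of the 3 libraries for all 5 of these genes. For Prf1 the intervals of BM only and C57BL/6 overlapped. Thinning does not remove the differences in Cell Ranger version, age, strain, irradiation and transplant. It would not remove one in kit either, and the kit of each library is not given clearly. The place of C57BL/6 among the 3 is thus a description.

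In NKT1-gate cells with iNKT V beta (2031 in BM only, 429 in BM + Spl), 8 of 8 counted genes were lower in BM + Spl. Their median was 6.56-fold, against 14.3% of 10889 genes and a median log2 ratio of 0.03 over all of them. These segments were not particular to the NKT gates. Among called cells of BM only and BM + Spl, 29.7% and 28.2% of the Foxp3 gate had them. In the CD8 gate 45.7% and 39.1% did. The part of other T cells in this subset may differ between the recipients and was not tested. Gzma went from 355 to 11.98 CPM (29.6-fold, 21.5 to 41.9), Gzmb from 405 to 64.3 CPM (6.30-fold, 5.47 to 7.28) and Prf1 from 38.4 to 5.04 CPM (7.61-fold, 4.62 to 13.4). Nkg7 went from 1527 to 493 CPM, Fasl from 110 to 42.9 CPM and Ctsw from 1282 to 660 CPM. Gzmc, which was higher over the whole gate, went from 17.2 to 2.52 CPM in these cells (175 and 8 UMIs). Gzmm rested on 29 UMIs and 1 UMI, and Gzmk, with 8 and 4 UMIs, was under the minimum.

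Within the NKT1 gate of BM + Spl, 464 cells carried other V beta segments and 429 carried iNKT segments. Of 7 counted genes, 3 were higher in the cells with other V beta and 2 were lower. By the same rule 13.6% of 9938 genes counted were higher and 9.51% lower. Fasl stood at 73.8 CPM (63.7 to 85.1) in other V beta cells and at 42.9 CPM (36.0 to 50.7) in iNKT V beta cells. The ratio was 1.72 (1.37 to 2.16). Gzmc (ratio 16.5) and Prf1 (ratio 2.23) were the other 2, but 1 cell held 96 of the 107 Gzmc UMIs and 1 cell held 23 of the 29 Prf1 UMIs, so these ratios are those of single cells. Gzma, at 2.72 CPM and 11.98 CPM, had a ratio of 0.227 (0.0856 to 0.515) on 7 and 38 UMIs. Gzmb, at 39.2 and 64.3 CPM, had one of 0.610 (0.476 to 0.778). Nkg7 and Ctsw had ratios of 0.929 and 0.893, within the 1.5-fold rule. This comparison changed with the way cells were chosen, from 0 to 5 genes higher over the alternatives listed in the closing section.

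In the other pathway genes of the NKT1 gate, 6 of 33 counted were past 2-fold higher in BM + Spl and 2 were past 2-fold lower, where 8.7% and 5.39% of all genes counted were, and their median log2 ratio was -0.00. Lta, which encodes lymphotoxin-α, went from 13.7 to 92.2 CPM, and Serpinb6a, a serine protease inhibitor, from 27.8 to 139 CPM. Stx11, a syntaxin needed for granule release, went from 11.9 to 43.0 CPM. Zeb2, a regulator of late effector cells, went from 2.02 to 13.0 CPM. Ctsl went from 10.1 to 24.7 CPM, and Ctsh (ratio 2.21, 0.95 to 5.24) was the sixth. Zfp683, which encodes Hobit, went from 128 to 43.9 CPM, and the death receptor Tnfrsf10b from 7.69 to 3.22 CPM. In iNKT V beta cells of the gate 4 were past 2-fold higher (Stx11, Serpinb6a, Lta and Zeb2) and 4 lower (Tnfrsf10b, Runx3, Zfp683 and Hopx), of 32 counted, where 7.75% and 7% of all genes were. Runx3 went from 137 to 60.8 CPM there and Hopx from 445 to 181 CPM. The median of the pathway list was thus near that of all genes counted in the gate, 0.06.

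Gzmc differed from the other 8 in that cells almost without T cell identity UMIs held most of its BM + Spl UMIs. It is a granzyme that lies beside Gzmb and is best known from strongly activated killer cells. In the NKT1 gate of BM + Spl it had 4611 UMIs, and 4497 of them (97.5%) were in 27 of the gate's 40 cells with at most 2 UMIs of the T cell identity genes. Without such cells the gate stood at 18.2 CPM in BM + Spl and 15.8 CPM in BM only, a ratio of 1.16 (0.910 to 1.47), and 1 cell held 96 of the 114 UMIs left in BM + Spl. For the other genes these cells mattered less: they held 21.7% of the Prf1 UMIs of that gate, 14.1% of those of Ctsw, 13.9% of those of Gzmb, 12.1% of those of Nkg7, 4.41% of those of Fasl and 0 of the 52 Gzma UMIs. Without them Gzma was 40.9-fold lower and Gzmb 5.58-fold lower in BM + Spl.

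**Figure D3:**
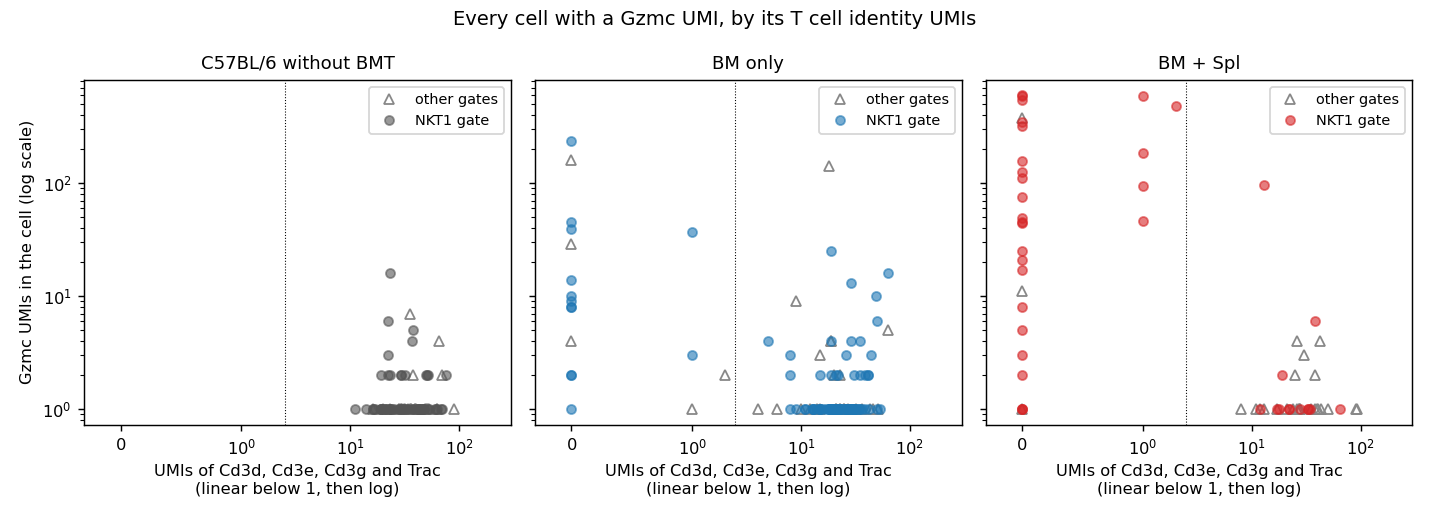
Every cell with a Gzmc UMI, by its Gzmc UMIs and its UMIs over Cd3d, Cd3e, Cd3g and Trac, for each library. Cells with 20 or more Gzmc UMIs lie mostly at 0 to 2 T cell identity UMIs in BM only and BM + Spl, and C57BL/6 has none, its highest cell having 16.

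Cells with 20 or more Gzmc UMIs, a limit chosen after the values were seen, numbered 0, 8 and 21 in C57BL/6, BM only and BM + Spl. They held 712 of 990 Gzmc UMIs (71.9%) in BM only and 4934 of 5037 (98.0%) in BM + Spl. The highest cell of BM + Spl had 599 Gzmc UMIs, 6.99% of all its UMIs, and the highest of BM only had 234. Just outside the limit the next cells had 16 and 17 UMIs, and just inside it 25 and 21. Of the 21 cells in BM + Spl, 20 had no Cd3e UMI and 20 no V beta UMI, while 19 had an Ncr1 UMI, 21 an Fcer1g UMI and 21 a Tyrobp UMI. Ncr1 is the NK receptor NKp46, and Fcer1g and Tyrobp encode signalling adaptors of NK and myeloid cells, looked at after the values were seen. Of the 8 in BM only, 6 had no Cd3e UMI, 5 had an Ncr1 UMI and 8 an Fcer1g UMI. Of the other NK markers, Klrb1c, which encodes NK1.1, had a UMI in 0 of the 8 and 2 of the 21, and Klre1 in 1 of the 8 and 4 of the 21. Eomes, a transcription factor of conventional NK cells, had no UMI in any of these cells. Every one had Nkg7 and Ctsw UMIs and none had a Gzma UMI. A Gzmb UMI was in 1 of the 8 and 5 of the 21, and a Prf1 UMI in 0 of the 8 and 8 of the 21. Most were in the NKT1 gate, 5 of 8 and 20 of 21, which takes cells with Il2rb UMIs. What these cells are was not tested.

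How the UMIs of the 9 genes lay over cells differed by gene. Among genes with at least 20 UMIs in a library, 50% of the UMIs lay in at most 5% of cells for 5 of 7 genes in C57BL/6, where 41.6% of all 12208 genes counted did so, for 6 of 9 in BM only (59.6% of 13033) and for 8 of 9 in BM + Spl (54.4% of 13206). A gene with few UMIs passes this limit whatever its spread, so the count says little about the 9 genes, and the comparison with an even spread by depth says more. Gzma was concentrated in each library: 27 of 4434 cells held 50% of its 2416 UMIs in C57BL/6, 55 of 5970 cells held 50% of 4985 in BM only, and 5 of 5557 held 50% of 460 in BM + Spl. The highest single cells had 111, 109 and 71 Gzma UMIs. If the Gzma UMIs of BM only had been spread over cells in proportion to depth, 51.0% of cells would have had one, and 8.09% had. In C57BL/6 these figures were 39.8% and 5.84%. For Gzmb, 99, 281 and 38 cells held 50% of the UMIs in the 3 libraries, which is 2.23%, 4.71% and 0.684% of cells. For Gzmc it was 21, 3 and 5 cells.

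Prf1 and Fasl were detected in shares of cells nearer to those of an even spread by depth. Prf1 UMIs were in 7.15%, 8.79% and 2.39% of cells of C57BL/6, BM only and BM + Spl where an even spread gives 8.43%, 9.80% and 3.85%. In BM + Spl 10 cells held 38.6% of the Prf1 UMIs. In BM only 83.8% of the cells with a Prf1 UMI had exactly 1. Fasl UMIs were in 11.4%, 19.3% and 10.1% of cells where an even spread gives 14.9%, 21.9% and 12.9%. With so few UMIs per cell a nearly even share of cells does not say that all cells held the gene alike, and both were higher in the NKT1 gate than in the NKT2 gate. Nkg7 took 425, 819 and 236 cells for 50% of its UMIs (9.59%, 13.7% and 4.25% of cells) and Ctsw took 1053, 1132 and 785. Among NKT1-gate cells with more than 2 T cell identity UMIs, 23 of 1565, 44 of 2444 and 4 of 953 cells held 50% of the Gzma UMIs, so the concentration of Gzma was present within the gate. For Gzmb 90, 231 and 7 of these cells did so, and in BM + Spl 1 cell alone had 107 of the 422 Gzmb UMIs.

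Some of the genes, but not every pair, were found together in NKT1-gate cells with more than 2 T cell identity UMIs, thinned to 2700 UMIs. In C57BL/6 a Gzmb UMI was in 51.9% (43.0 to 60.7) of cells with Gzma and in 18.5% (16.5 to 20.6) of cells without. In BM only it was in 61.7% (55.5 to 67.5) and 40.5% (38.3 to 42.7). For Prf1 the shares were 26.0% and 6.63% by Gzma in C57BL/6, and 13.2% (9.34 to 17.8) and 9.19% (7.93 to 10.6) in BM only, where the intervals overlap. An Nkg7 UMI was in 92.5%, 97.9% and 76.6% of cells with Gzmb in C57BL/6, BM only and BM + Spl, and in 60.1%, 83.3% and 42.9% of cells without. For Fasl the shares by Gzmb were 26.1% and 11.7% in C57BL/6 and 28.2% (25.3 to 31.2) and 22.3% (20.1 to 24.8) in BM only. In BM + Spl they were 14.9% (6.20 to 28.3) and 16.4% (14.0 to 19.1), with overlapping intervals. By Prf1 the Fasl shares in BM only were 25.9% (20.2 to 32.4) and 24.7% (22.8 to 26.7), which overlap too. Cells with Gzma in BM + Spl were too few to describe in this way.

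Outside the NKT1 gate the 2 recipients differed gene by gene. The NKT1 gate held 83.2% of Gzma UMIs in BM only and 11.3% in BM + Spl, where the CD8 gate held 57.4%. In the CD8 gate (221 and 384 cells, left after CD8 depletion) Gzma stood at 110 CPM in BM only and 122 CPM in BM + Spl, a ratio of 1.11 (0.887 to 1.39), Prf1 at 50.2 and 49.3 CPM (0.982, 0.700 to 1.39) and Nkg7 at 1167 and 1108 CPM (0.949, 0.886 to 1.02). Gzma there rested on 12 and 16 cells. Gzmb of the CD8 gate went from 158 to 49.8 CPM (ratio 0.315, 0.245 to 0.403), and 1 cell held 51 of its 167 UMIs in BM only. Gzmk went from 22.7 to 58.1 CPM (ratio 2.55, 1.64 to 4.14), in 4.07% and 9.90% of cells, and this gate held 80.3% of all Gzmk UMIs of BM + Spl.

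In the Foxp3 gate (634 and 696 cells), which marks regulatory T cells, Nkg7 went from 135 CPM (123 to 147) in BM only to 333 CPM (318 to 348) in BM + Spl, a ratio of 2.47 (2.23 to 2.73). At 2700 UMIs per cell an Nkg7 UMI was in 13.7% and 30.6% of these cells, and in 5.81% and 16.7% of B-gate cells. Nkg7 was also higher in the myeloid gate of BM + Spl, at 41.2 and 99.3 CPM (ratio 2.41, 1.86 to 3.15), and in that gate's cells with more than 2 T cell identity UMIs at 156 and 239 CPM (ratio 1.53, 1.14 to 2.10). The part of RNA from other cells in the Foxp3-gate value was not tested. Gzmb of the Foxp3 gate stood at 106 and 130 CPM (ratio 1.22, 1.08 to 1.39), and 1 cell held 62 of the 402 UMIs of BM only. At 2700 UMIs per cell a Gzmb UMI was in 10.5% (8.01 to 13.4) and 18.8% (15.8 to 22.1) of that gate's cells. The Foxp3 gate held 48.6% of the Gzmb UMIs of BM + Spl against 7.03% in BM only. Gzma of that gate went from 19.3 to 3.94 CPM, with 47 of the 73 UMIs of BM only in 1 cell.

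**Figure D4:**
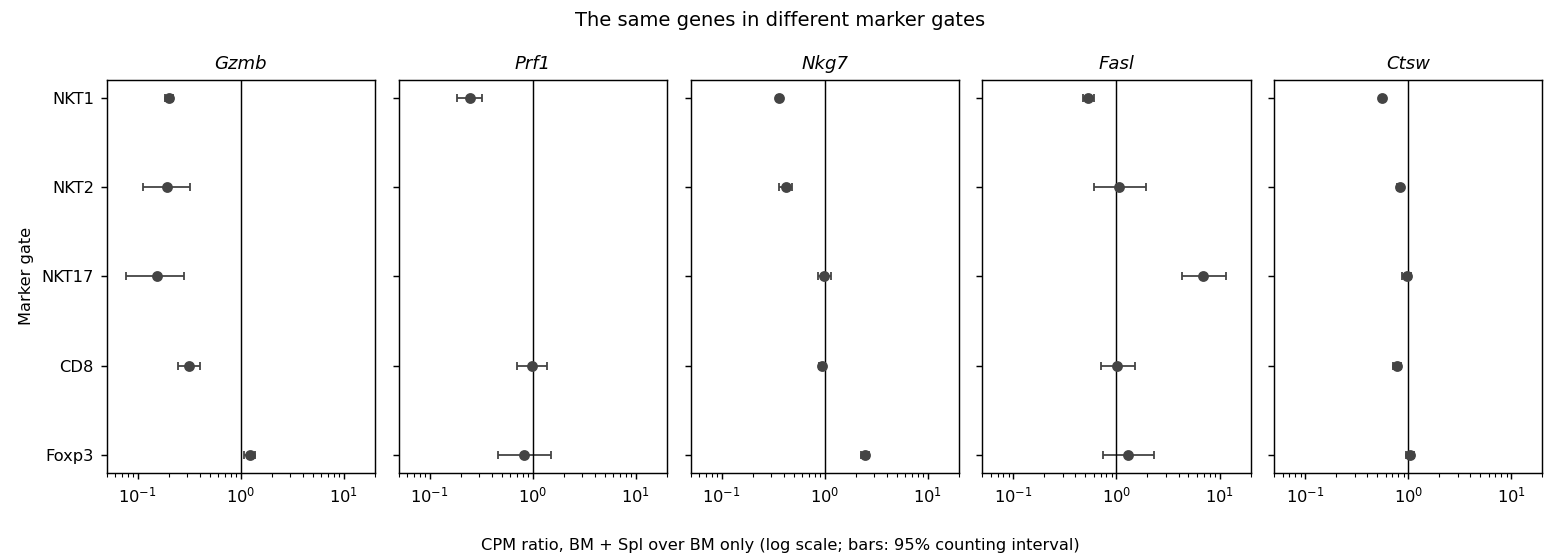
CPM ratio of BM + Spl to BM only (log axis, exact 95% intervals) for Gzmb, Prf1, Nkg7, Fasl and Ctsw in the NKT1, NKT2, NKT17, CD8 and Foxp3 gates, where both libraries together had at least 20 UMIs. Fasl in the NKT17 gate (6.88) and Nkg7 in the Foxp3 gate (2.47) lie above 1, while both lie below 1 in the NKT1 gate.

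In the NKT17 gate (517 and 415 cells) Fasl went from 7.46 CPM (4.62 to 11.4) to 51.4 CPM (42.8 to 61.1), 6.88-fold higher in BM + Spl (4.31 to 11.5). At 2700 UMIs per cell a Fasl UMI was in 1.79% and 13.2% of cells, and in 0 of 86 and 2.78% of 72 B-gate cells. By V beta class, Fasl stood at 6.63 and 34.9 CPM in iNKT V beta cells of the gate. In cells with other V beta it stood at 1.61 and 65.5 CPM. At 2700 UMIs per cell, 1.63% of 245 and 10.5% of 133 iNKT V beta cells had a Fasl UMI. With other V beta, 1 of 119 cells and 14.5% of 234 had one. The part of V beta class in the difference was not tested. The iNKT V beta share of the gate was 64.7% in BM only and 37.5% in BM + Spl. Nkg7 and Ctsw of the NKT17 gate did not differ past 1.5-fold, with ratios of 0.993 (0.860 to 1.15) and 0.964 (0.875 to 1.06). Gzmb went from 31.3 to 4.85 CPM there and Gzmc from 64.7 to 3.64 CPM, but 1 cell held 142 of the 182 Gzmc UMIs of BM only. In the NKT2 gate Nkg7 was lower in BM + Spl (ratio 0.420, 0.362 to 0.487) and so was Gzmb (59 and 22 UMIs, ratio 0.193, 0.113 to 0.321). Neither had shares of cells above those of the B gate beyond the intervals. Most Nkg7 and Gzmb UMIs of the B gate were in cells with more than 2 T cell identity UMIs. The B gate thus does not measure background alone, and the part of background was not tested. Fasl (ratio 1.06, 0.601 to 1.95) and Gzma (ratio 1.45, 0.962 to 2.22) of the NKT2 gate had intervals that hold 1. For Gzma 1 cell held 39 of the 92 UMIs of BM + Spl.

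The genes with the most similar pattern were sought over 20 groups of at least 50 cells (gate by library), by Pearson r of log2(CPM + 1) after the mean of each library was subtracted, among 11277 genes with at least 200 UMIs. The groups share libraries and sorts, so r is a description. For Gzmb the closest was Ccl5 (r = 0.90), and for Nkg7 it was Xcl1 (r = 0.96), both chemokines. Prf1 was closest to Nkg7 itself (r = 0.93), Gzma to the NK receptor gene Klre1 (r = 0.88) and Fasl to the killer receptor gene Klri2 (r = 0.96). Gzmc was closest to Ncr1 (r = 0.91), ahead of Klrb1f at 0.70, and Ctsw to Sidt1 (r = 0.96).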

How the data were processed

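Thymic cells of 3 groups (1 library each) were profiled by droplet single-cell RNA sequencing. The authors deposited, for each library, a matrix of raw UMI counts per gene and barcode made with Cell Ranger (3.0.2 in the C57BL/6 table header, 7.0.0 in both others), on mm10; Seurat 4.0.2 is named in the submitters' processing notes. No normalization had been applied. The kit of each library is not given clearly in the sources used here. Total counts per library were 60600408, 35041153 and 43383960.

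Cells with more than 200 and fewer than 6000 genes and under 10% mitochondrial UMIs were kept (179, 16 and 16 left out), and no doublets were removed; cells over 2.5 times the median UMIs were left out in an alternative. Gates were set in this order: B (Cd79a, Cd79b, Ms4a1, Ebf1) or myeloid (Lyz2, C1qa, C1qb, Csf1r, Siglech, Flt3, Clec9a, Xcr1) at 3 UMIs or more, Foxp3 at 1 or more, Cd8a plus Cd8b1 at 2 or more, then whichever of the NKT1 (Tbx21, Cxcr3, Il2rb, Slamf7), NKT2 (Zbtb16, Il17rb, Il4, Il13) and NKT17 (Il23r, Il1r1, Blk, Ccr6, Tmem176a, Tmem176b) lists led with 2 or more; 2 markers of these lists are not reported here. In the NKT1 gate 166, 141 and 131 cells led the next of these 3 lists by at most 1 UMI. V beta was read in any cell with a V beta UMI. Such a cell counted as iNKT V beta with at least 80% of those UMIs on Trbv1, Trbv12-2, Trbv13-1, Trbv13-2, Trbv13-3 and Trbv29. It counted as other with at most 20%. UMIs were summed over gates and divided by the sum over the 30406 shared genes; ratios, intervals and calls are as stated with the results. All 9 genes were named, and of the pathway list those past 2-fold. With 1 library per group no test was run. The genes, lists and gates were chosen with earlier results of these data known. The steps were tested on simulated data. Python 3.11.15, numpy 2.4.6, scipy 1.17.1 and pandas 2.3.3 were used. PCR duplicates are collapsed by UMIs, and intervals cover counting error only. Seed 1 was used for thinning.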

Additional observations from a re-analysis of the deposited data

Results flagged for a closer look

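Gzmc, Nkg7 and Fasl went one way in 1 gate and the opposite way in another between BM only and BM + Spl. The difference between gates was not tested, since each group is 1 library. Gzmc was higher in BM + Spl in the NKT1 gate (ratio 14.5) and lower in the NKT17 gate (ratio 0.0563), both values that rest on few cells, as 97.5% of the first gate's BM + Spl UMIs were in cells almost without T cell identity UMIs and 1 cell held 142 of the second's 182 BM only UMIs. Nkg7 was lower in the NKT1 gate (ratio 0.358) and the NKT2 gate (ratio 0.420) and higher in the Foxp3 gate (ratio 2.47). Its NKT2-gate shares of cells were not above those of the B gate beyond the intervals. The B gate does not measure background alone, as most of its Nkg7 UMIs were in cells with more than 2 T cell identity UMIs. The part of background in the NKT2-gate shares was not tested. Nkg7 was also higher in the myeloid gate (ratio 2.41), whose own cells should lack it. There 51 of 70 Nkg7 UMIs in BM only and 325 of 381 in BM + Spl were in cells with more than 2 T cell identity UMIs. Fasl was lower in the NKT1 gate (ratio 0.532) and higher in the NKT17 gate (ratio 6.88). The cell counts of those gates, and the share of iNKT V beta cells in them, differed between the recipients too, and their part in these results was not tested.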

How the results depend on the processing

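Of 96 recomputed counts of genes, 89 stayed within 1.5 times the reported count and 7 did not; of 592 recomputed ratios, 455 stayed within the counting interval of the reported ratio, 132 moved outside it and 5 reversed. The count of genes higher in other V beta cells of the BM + Spl NKT1 gate (3 as reported) was 0 with cells thinned, 1 under stricter gates, 1 without Il2rb as a marker, 1 without the 1% of cells with the most UMIs of the 9 genes, 5 with no minimum of UMIs and 5 with the iNKT call made from Trav11. The count of genes lower in iNKT V beta cells of BM + Spl (8) was 5 with the Trav11 call, on 7 and 63 cells. That call takes cells with a Trav11 or Trav11d UMI as iNKT and every cell without one as other. Its iNKT side thus held few cells, here and in the comparison of other with iNKT V beta. Without the 1% of cells, the BM + Spl to BM only ratio of Gzmc reversed to 0.303 over all cells and 0.544 in the NKT1 gate, and the other to iNKT V beta ratio of Prf1 to 0.462; the Trav11 call turned that of Gzmb to 2.13. Leaving out cells with at most 2 T cell identity UMIs, an alternative chosen after seeing the data, turned the all-cell ratio of Gzmc to 0.317. Few cells hold these UMIs; otherwise the cause was not tested. No paired analysis was possible because each group is 1 library, and for the same reason no replicate could be left out.

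Depth limited Gzmk and Gzmm, with 2 to 157 and 17 to 57 UMIs per library. The C57BL/6 library was the deepest and gave few V beta calls. Library, pool of mice, processing batch and group cannot be told apart.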

Other observations

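Dividing cells of the NKT1 gate, taken as those with at least 5 UMIs and 0.05% of UMIs on Mki67, Top2a, Birc5, Cdk1, Ccna2, Rrm2, Tyms and Pclaf, differed from the rest of the gate. In C57BL/6 Fasl stood at 2.499 CPM in 123 such cells and 54.5 CPM in the other 1442, Nkg7 at 130 and 657 CPM, and Gzmb at 27.1 and 156 CPM. In BM + Spl Fasl stood at 6.95 CPM in 61 cells and 63.1 CPM in the other 932. In BM only Prf1 stood at 7.75 CPM in 64 such cells and 38.7 CPM in the other 2432, while Gzma stood at 555 and 324 CPM, with 26.0% of the Gzma UMIs of the dividing cells in 1 cell. The barcodes left out by the filter on cells held the 9 genes at 335, 237 and 75.1 CPM in C57BL/6, BM only and BM + Spl, over 179, 16 and 16 barcodes.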
